A study of Mus musculus with 26 samples.

Results

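The transcription factors that drive fat cell formation were followed in epididymal fat from lean, obese and formerly obese mice. They are the 9 genes Pparg, Cebpa, Rxra, Klf15, Cebpb, Cebpd, Ebf1, Ebf2 and Zfp423, taken from both gene tables by symbol. These symbols stood at 10 of the 39017 gene identifiers, because Ebf1 is listed at a second identifier (ENSMUSG00000078561) that held 0 to 29 counts per library and was not used. All 9 genes passed the filter on low counts in adipocytes and in stromal vascular cells (SVC).

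The animals were wild type C57BL/6J males that entered the study aged 9 to 10 weeks. Lean mice ate a diet with 10% fat (LFD) for 12 weeks and obese mice a diet with 60% fat (HFD) for 12 weeks. Formerly obese mice (SW) ate the HFD for 9 weeks and then the LFD for 3 weeks. The fat pads of every group were digested with collagenase and spun, which gave floating adipocytes and an SVC pellet that was then treated to lyse red cells. RNA sequencing of adipocytes gave 3 libraries per diet, and that of SVC gave 1 LFD, 2 HFD and 3 SW libraries that could be tied to a group. Libraries are named below by the number in their column heading (adipocytes: HFD 401 to 403, LFD 404 to 406, SW 407 to 409). The labels call these separate samples without tying each to a mouse, so the p-values measure the spread between these samples.

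PPARG is a nuclear receptor that binds DNA together with an RXR partner such as RXRA and is required for adipocytes to form and to be maintained. In the textbook cascade CEBPB and CEBPD act early after a hormonal stimulus and switch on PPARG and CEBPA, which then maintain each other's expression and turn on the genes of lipid storage. KLF15 acts in the same cascade and responds to glucocorticoids and fasting, EBF1 and EBF2 act with PPARG at adipocyte enhancers, and ZFP423 marks committed preadipocytes and restrains the thermogenic programme of white fat.

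Library totals ran from 5781902 to 23725647 estimated counts. Each member held at least 110 counts in every adipocyte library, and at least 42 in every SVC library. The labelled cell types were checked against marker lists. All 7 adipocyte markers, among them Adipoq and Plin1, were higher in adipocytes than in SVC in both the SW and the HFD mice (edgeR, adjusted p under 0.05). Endothelial markers were also higher in adipocytes, at 4 of 5 in SW and 3 of 5 in HFD mice, and 0 were lower. Macrophage markers were lower in adipocytes at 9 of 11 in SW and 4 of 11 in HFD mice, and 0 were higher. Macrophage transcripts were also present in the adipocyte libraries and differed between diets: the summed level of 11 markers, none at 0, was 712 to 1202 CPM (read counts scaled to a fixed library size) in LFD, 8633 to 10085 in HFD and 6151 to 9015 in SW libraries. The 7 adipocyte markers summed to 29120 to 39052 CPM in LFD, 11457 to 19281 in HFD and 24410 to 26554 in SW libraries. A list of 10 immediate early genes such as Fos and Jun, added after the files were seen, summed to 828 to 1728 CPM in LFD, 1519 to 2733 in HFD and 2445 to 4089 in SW libraries. In HFD against LFD mice, macrophage markers rose at 11 of 11, fibroblast and progenitor markers rose at 2 and fell at 1 of 7, endothelial markers fell at 3 of 5, mesothelial markers fell at 3 of 5, red cell markers fell at 5 of 5, and none of the 4 T cell or 4 B cell markers tested passed.

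**Figure D1:**
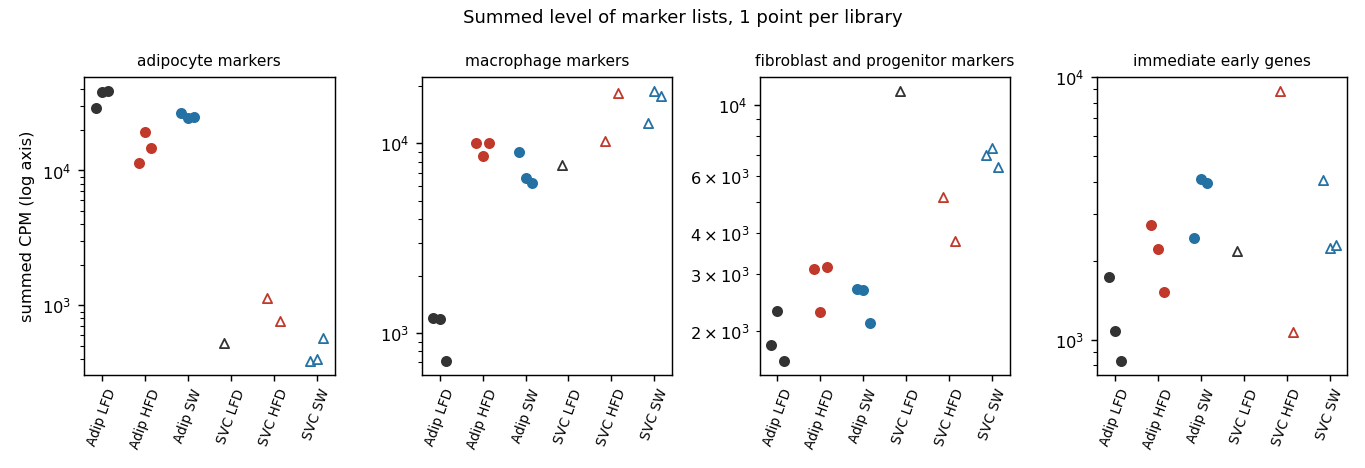
Summed CPM of 4 marker lists in each library on a log axis, with filled circles for adipocytes and open triangles for SVC, in black for LFD, red for HFD and blue for SW. The macrophage sum of the adipocyte LFD libraries (712 to 1202) lies below that of all other groups, and the 2 SVC HFD libraries lie far apart for the immediate early genes (8896 and 1070).

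The promoters are shown because the cascade runs through binding of these factors next to one another's genes. RefSeq (GRCm38.p6) held windows of the 250 bases before 12 start sites of 7 members, among them 3 of Pparg. Both strands were searched for C/EBP letters TTGCNNAA and KLF letters CACCC. The C/EBP letters stood in 2 of the 12 windows, against 9.56% of all 32851 promoter windows. They occurred at -215 to -208 and at -16 to -9 of the third Pparg start and at -131 to -124 of the first Zfp423 start. The KLF letters stood in 11 of the 12 windows, against 52.0% of all windows, and the window without them was that of the third Pparg start. No C/EBP match overlapped a KLF match. A match of letters is a description and not a site. The windows of Pparg (the third start, chr6:115421816-115422065, + strand), Cebpa (chr7:35119043-35119292, + strand) and Klf15 (chr6:90462326-90462575, + strand) are printed 5′ to 3′, with the C/EBP letters of Pparg and the KLF letters of Cebpa and Klf15 in capitals.
Pparg: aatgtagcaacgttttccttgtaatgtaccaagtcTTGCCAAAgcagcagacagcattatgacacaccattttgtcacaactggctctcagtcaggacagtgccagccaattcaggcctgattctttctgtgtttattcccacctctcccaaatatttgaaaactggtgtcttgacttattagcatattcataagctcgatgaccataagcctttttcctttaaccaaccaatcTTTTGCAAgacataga
Cebpa: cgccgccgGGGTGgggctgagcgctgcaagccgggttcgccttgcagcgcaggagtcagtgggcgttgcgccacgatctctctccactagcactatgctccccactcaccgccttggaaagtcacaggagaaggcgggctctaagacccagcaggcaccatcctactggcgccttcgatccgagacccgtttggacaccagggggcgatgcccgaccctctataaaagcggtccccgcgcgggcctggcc
Klf15: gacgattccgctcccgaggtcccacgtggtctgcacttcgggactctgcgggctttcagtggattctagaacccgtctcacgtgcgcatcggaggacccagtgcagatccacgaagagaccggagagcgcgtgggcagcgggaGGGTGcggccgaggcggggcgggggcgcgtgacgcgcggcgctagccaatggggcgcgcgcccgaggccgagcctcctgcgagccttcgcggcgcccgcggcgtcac

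The first comparison asked how these factors stood in adipocytes of obese mice. In HFD against LFD adipocytes 7 of 9 members were lower and 0 higher, with folds from 1.39 for Rxra to 4.18 for Klf15, and scaling to the adipocyte markers in place of library size reversed every member but Klf15. Of all 14461 genes tested, 25.0% were called lower and 51.5% were called in either direction. The median log2 fold change of the members was -0.72, and that of all genes -0.03. Scaling to the adipocyte markers moved the median of all genes to 1.22, with the members' median at 0.53, and raised the share of higher calls among all calls from 51.5% to 98.2%. Under that scaling 4 members were called higher and 1 lower. The fall of adipocyte markers and the rise of macrophage markers moved with these results, and their part in them was not tested. In bulk RNA, fewer cells of a type and less RNA per cell cannot be told apart.

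**Figure D2:**
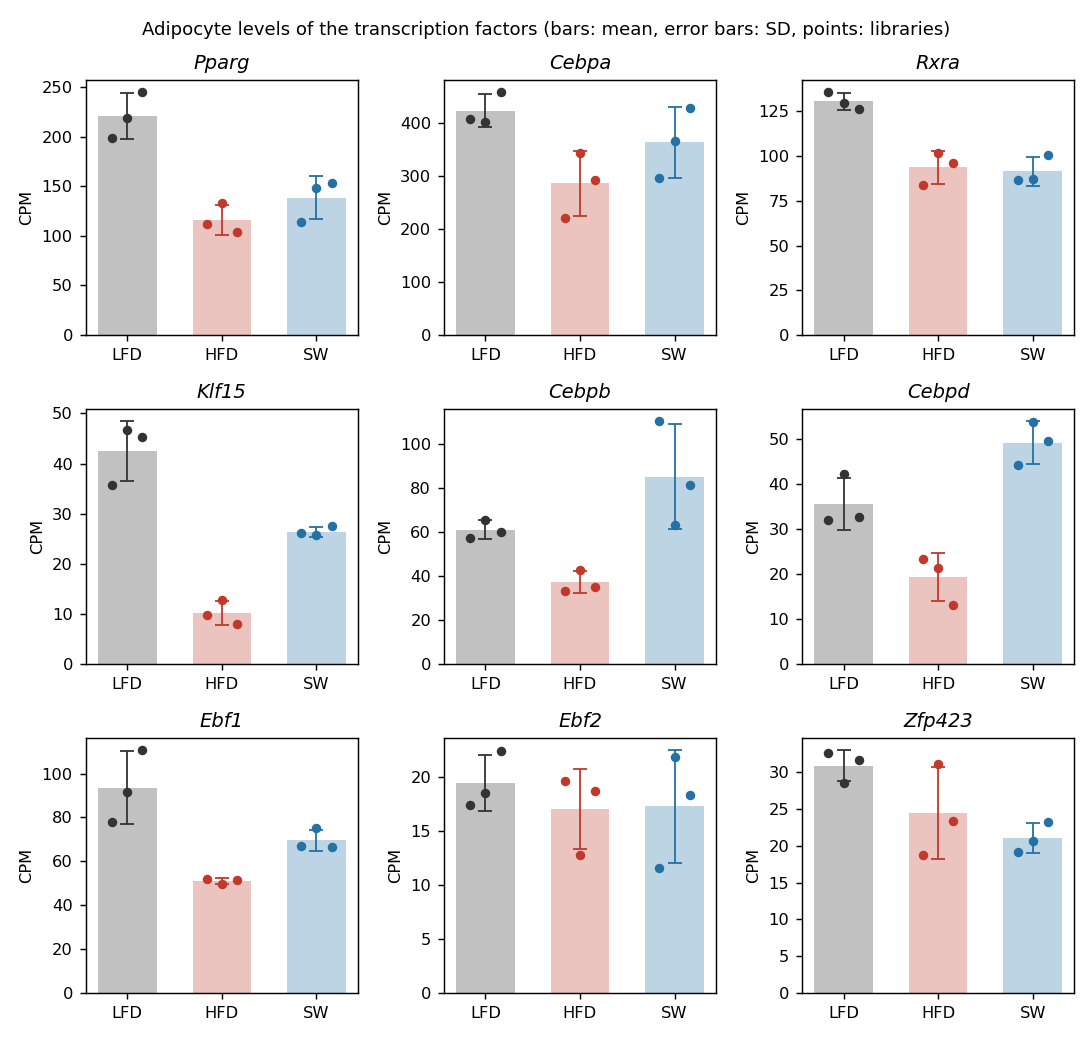
CPM of each member in adipocytes by diet, with bars for the mean of 3 libraries, error bars for the SD and points for single libraries. The HFD libraries lie below all LFD libraries for 7 members, and overlap with them for Ebf2 and Zfp423; scaled to the adipocyte markers, the mean HFD difference turned positive for all members but Klf15.

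Pparg, the master regulator of fat cell identity, stood at 198, 219 and 245 CPM in LFD, 112, 133 and 104 CPM in HFD, and 114, 148 and 153 CPM in SW adipocytes. All HFD libraries were below all LFD libraries, a separation that 62.7% of all genes showed in one direction or the other. Pparg was 1.90-fold lower in HFD mice (log2 fold change -0.93 ± 0.16 SE, edgeR adjusted p = 0.000928), but 0.32 on the log2 scale under marker scaling (adjusted p = 0.209). Counts are per gene, so transcripts from the different Pparg starts were not told apart.

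Rxra, the DNA-binding partner of PPARG, stood at 136, 130 and 126 CPM in LFD, 83.6, 102 and 96.0 CPM in HFD, and 86.4, 87.2 and 101 CPM in SW adipocytes. Its HFD and SW libraries shared one range below the LFD libraries. The difference between HFD and LFD was 1.39-fold (log2 fold change -0.48 ± 0.12 SE, edgeR adjusted p = 0.00659), and 0.76 in the other direction under marker scaling (adjusted p = 0.00541).

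Cebpa, which maintains Pparg expression and insulin sensitivity in mature adipocytes, stood at 408, 403 and 459 CPM in LFD, 221, 345 and 293 CPM in HFD, and 296, 366 and 429 CPM in SW adipocytes. The HFD libraries were all below the LFD libraries, while the SW libraries overlapped both. Cebpa was 1.48-fold lower in HFD mice (log2 fold change -0.56 ± 0.19 SE, edgeR adjusted p = 0.0328), with 0.66 under marker scaling (adjusted p = 0.0123). Leaving out any of 5 of the 6 libraries ended the call: the log2 fold change was -0.41 without HFD 401 (adjusted p = 0.106), -0.58 without HFD 403 (0.0772), -0.59 without LFD 404 (0.0549), -0.60 without LFD 405 (0.0646) and -0.50 without LFD 406 (0.0986). It was also lost without a filter on low counts (-0.51, 0.0547).

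Klf15, a zinc finger factor of the later adipogenic cascade, showed the largest difference of the 9. Its level was 35.7, 46.7 and 45.2 CPM in LFD, 9.77, 12.8 and 8.0 CPM in HFD, and 26.1, 25.7 and 27.5 CPM in SW adipocytes. The 3 groups did not overlap, and the SW libraries lay between the others. Klf15 was 4.18-fold lower in HFD than in LFD mice (log2 fold change -2.06 ± 0.18 SE, edgeR adjusted p = 1.94e-05). It was the one member that kept both direction and call under marker scaling (-0.78, adjusted p = 0.00723), and its log2 fold change ran from -2.25 to -1.90 when each library was left out in turn.

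Cebpb and Cebpd are the early C/EBP factors of the cascade, and both also respond to hormones, stress and inflammatory signals. Cebpb stood at 57.2, 65.7 and 60.1 CPM in LFD, 33.4, 42.8 and 35.1 CPM in HFD, and 111, 63.3 and 81.6 CPM in SW adipocytes. Cebpd stood at 31.9, 42.1 and 32.6 CPM in LFD, 23.2, 21.2 and 13.2 CPM in HFD, and 44.0, 53.7 and 49.5 CPM in SW adipocytes. For both, the HFD libraries were the lowest, and SW libraries reached the highest values. In HFD against LFD mice Cebpb was 1.65-fold lower (log2 fold change -0.72 ± 0.19 SE, edgeR adjusted p = 0.0100), with 0.53 under marker scaling (adjusted p = 0.0503). Cebpd was 1.87-fold lower (log2 fold change -0.90 ± 0.21 SE, edgeR adjusted p = 0.00476), with 0.35 under marker scaling (adjusted p = 0.267).

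Ebf1, an early B cell factor that also acts in adipocyte differentiation, stood at 78.0, 91.8 and 111 CPM in LFD, 51.9, 49.5 and 51.4 CPM in HFD, and 67.2, 75.2 and 66.7 CPM in SW adipocytes. The 3 diets did not overlap, with the HFD libraries lowest and the SW libraries between. Ebf1 was 1.84-fold lower in HFD than in LFD mice (log2 fold change -0.88 ± 0.13 SE, edgeR adjusted p = 0.000462), with 0.39 under marker scaling (adjusted p = 0.143).

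Ebf2, its relative that is known for selecting brown fat genes, stood at 17.4, 18.5 and 22.4 CPM in LFD, 19.6, 12.8 and 18.7 CPM in HFD, and 11.6, 21.9 and 18.4 CPM in SW adipocytes. The 3 groups overlapped, and Ebf2 passed the test in no diet comparison scaled to library size (log2 fold change HFD against LFD -0.20 ± 0.24 SE, edgeR adjusted p = 0.516). Zfp423 stood at 32.7, 28.5 and 31.6 CPM in LFD, 18.8, 31.2 and 23.3 CPM in HFD, and 19.2, 20.7 and 23.3 CPM in SW adipocytes. Its HFD range reached into the LFD range through HFD 402 alone. Its HFD against LFD value was -0.33 ± 0.17 SE on the log2 scale (edgeR adjusted p = 0.137), and without HFD 402 it was -0.53 (adjusted p = 0.0152). Under marker scaling both were higher in HFD mice, Ebf2 by 1.04 (adjusted p = 0.00791) and Zfp423 by 0.88 (adjusted p = 0.00304).

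The second comparison set SW against HFD adipocytes. These groups of mice differed at once in weight loss, in current diet and in weeks on the HFD, and these cannot be told apart. In SW against HFD adipocytes 4 of 9 members were higher and 0 lower, where 15.6% of all genes were called higher and 15.9% lower. These 4 were Klf15, Cebpd, Cebpb and Ebf1, and under marker scaling Ebf1 reversed, Klf15 was the one of them still called higher, and Rxra (-0.81, adjusted p = 0.00728) and Zfp423 (-0.96, adjusted p = 0.00403) were called lower. Markers of other cells moved in this comparison too, and their part was not tested: macrophage markers fell at 6 of 11 with a median log2 fold change of -0.79, adipocyte markers rose at 3 of 7, red cell markers at 4 of 5, B cell markers at 2 of 4, and T cell markers at 1 of 4 tested. The libraries of these 4 genes did not overlap between SW and HFD, as was so for 48.6% of all genes. Klf15 rose 2.58-fold (log2 fold change 1.37 ± 0.18 SE, edgeR adjusted p = 0.00299), and by 0.58 under marker scaling (adjusted p = 0.0487), which moved the median of all genes to -0.77 and the share of higher calls among all calls from 49.5% to 1.92%.

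Cebpd rose 2.57-fold (log2 fold change 1.36 ± 0.20 SE, edgeR adjusted p = 0.00419) and Cebpb rose 2.29-fold (1.19 ± 0.19 SE, adjusted p = 0.00479). Under marker scaling they were 0.59 (adjusted p = 0.0801) and 0.39 (adjusted p = 0.170). Immediate early genes moved with them, since 2 of 10 rose in SW against HFD mice and their sum was 2445 to 4089 CPM in SW libraries against 1519 to 2733 CPM in HFD libraries, and their part was not tested. The highest Cebpb level, 111 CPM, was in SW 407, which had the lowest immediate early sum of the SW libraries. It also had the highest macrophage marker sum of them, 9015 CPM against 6559 in SW 408 and 6151 in SW 409. The part of either list in this value was not tested.

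Ebf1 rose 1.37-fold (log2 fold change 0.45 ± 0.13 SE, edgeR adjusted p = 0.0275), but was at -0.33 under marker scaling (adjusted p = 0.243). Its call was lost without HFD 401 (adjusted p = 0.0780), HFD 402 (0.0826), HFD 403 (0.103) or SW 408 (0.0960). Pparg and Cebpa did not pass: Pparg was at 0.25 ± 0.16 SE (adjusted p = 0.231) and Cebpa at 0.35 ± 0.19 SE (adjusted p = 0.189), both on the log2 scale. The other values were -0.04 ± 0.12 SE for Rxra (adjusted p = 0.833), 0.04 ± 0.24 SE for Ebf2 (adjusted p = 0.918) and -0.22 ± 0.17 SE for Zfp423 (adjusted p = 0.356).

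**Figure D3:**
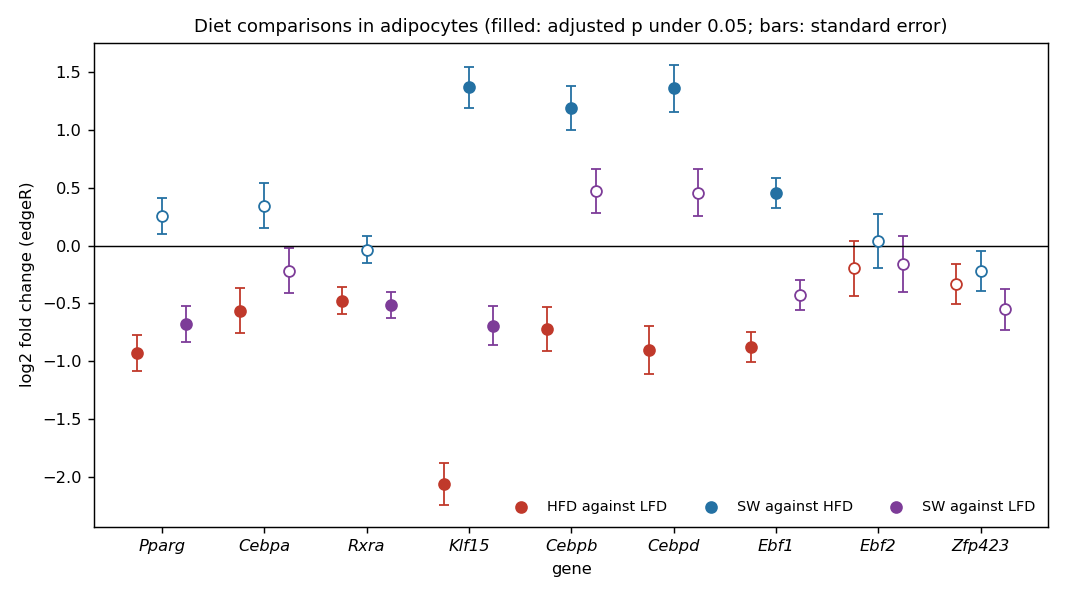
Log2 fold change of each member in 3 adipocyte comparisons from edgeR, with the standard error as a bar and filled points for an adjusted p under 0.05. With the usual scaling to library size 7 members were lower in HFD than in LFD mice, 4 were higher in SW than in HFD mice and 3 lower in SW than in LFD mice; scaled to adipocyte markers, all but Klf15 turned positive in the first comparison, Pparg, Cebpa, Ebf1 and Ebf2 turned negative in the second, where Rxra and Zfp423 were called lower and Klf15 higher, and Cebpa, Ebf1 and Ebf2 turned positive in the third.

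The third comparison asked how SW mice, with 9 weeks of HFD before 3 weeks of LFD, differed from lean mice. In SW against LFD adipocytes 3 of 9 members were lower and 0 higher, where 6.18% of all genes were called lower and 10.9% higher. Rxra was 1.43-fold lower (log2 fold change -0.51 ± 0.12 SE, edgeR adjusted p = 0.0132), Pparg 1.59-fold lower (-0.67 ± 0.16 SE, adjusted p = 0.0147) and Klf15 1.62-fold lower (-0.69 ± 0.17 SE, adjusted p = 0.0202). Under marker scaling, which moved the median of all genes to 0.47 and the share of higher calls from 63.8% to 97.4%, these 3 were at -0.04, -0.21 and -0.20 and did not pass, while Cebpb (0.91, adjusted p = 0.0109) and Cebpd (0.94, adjusted p = 0.0246) were called higher.

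The call of Pparg was lost without LFD 406 (adjusted p = 0.0567). That of Klf15 was lost without LFD 405 (0.0808), LFD 406 (0.0677) or SW 408 (0.0595). Without LFD 406, 1 member was called. Ebf1 (-0.43 ± 0.13 SE, adjusted p = 0.0509) and Zfp423 (-0.55 ± 0.18 SE, adjusted p = 0.0597) missed the threshold in edgeR and passed it in DESeq2 (adjusted p = 0.0263 and 0.0339) and with upper-quartile factors (0.0358 and 0.0435), each of which called 5 members.

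The levels of Ebf1 in SW mice lay below all LFD libraries, as did those of Pparg, Rxra, Klf15 and Zfp423, and those of Cebpd above them (36.7% of all genes had no overlap here). Cebpb (0.47 ± 0.19 SE, adjusted p = 0.113) and Cebpd (0.46 ± 0.20 SE, adjusted p = 0.149) did not pass the test over all genes. In this comparison 8 of 10 immediate early genes and 10 of 11 macrophage markers rose.

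HFD and SW mice were also set together against LFD mice. In this contrast 5 of 9 members were lower and 0 higher, where 19.4% of all genes were called lower and 40.1% in either direction, and under marker scaling 4 of the 9 were called higher and 1 lower (with 51.6% and 98.2% of all calls higher). The members called were Klf15 (log2 fold change -1.38 ± 0.14 SE, edgeR adjusted p = 7.28e-05), Pparg (-0.80 ± 0.13 SE, 0.00107), Ebf1 (-0.65 ± 0.11 SE, 0.00137), Rxra (-0.50 ± 0.10 SE, 0.00316) and Zfp423 (-0.44 ± 0.15 SE, 0.0402). The call of Zfp423 was lost on leaving out HFD 403 (0.0716), LFD 404 (0.110), LFD 405 (0.0713), LFD 406 (0.117), SW 407 (0.0584) or SW 408 (0.0611). Cebpb (-0.12 ± 0.16 SE, adjusted p = 0.580) and Cebpd (-0.22 ± 0.18 SE, adjusted p = 0.341), whose mean levels were below LFD in HFD mice and above LFD in SW mice, did not pass. Cebpa was at -0.39 ± 0.16 SE (adjusted p = 0.0843), and passed in DESeq2 (-0.39, 0.0468), with upper-quartile factors (-0.46, 0.0471) and without HFD 402 (-0.47, 0.0423). Ebf2 was at -0.18 ± 0.21 SE (adjusted p = 0.528).

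Other genes around this cascade were read as lists. Their counts stand beside the shares of all genes called, which were 26.5% higher and 25.0% lower in HFD against LFD, 15.6% and 15.9% in SW against HFD, and 10.9% and 6.18% in SW against LFD adipocytes. Among close relatives of the members, 4 of 10 tested were lower in HFD than in LFD adipocytes and 0 higher, with a median log2 fold change of -0.28. They included Rxrg, a further RXR partner (9.06 ± 2.19 CPM, SD, against 18.2 ± 4.85, log2 fold change -0.99), Zfp467, a zinc finger factor that promotes adipogenesis (18.1 ± 2.34 against 31.4 ± 4.38 CPM, -0.79), and Ebf3 (16 ± 1.87 against 25.6 ± 3.27 CPM, -0.68). From HFD to SW mice 1 relative rose and 0 fell, and in SW against LFD mice 1 fell, Ebf3 (-0.71 ± 0.20 SE, edgeR adjusted p = 0.0378).

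Of 23 other adipogenic factors and coactivators tested, 5 rose and 7 fell in HFD against LFD adipocytes, with a median of -0.02. Egr2, an early activator of the cascade, rose from 4.22 ± 1.70 to 36.3 ± 1.41 CPM (log2 fold change 3.10 ± 0.35 SE, edgeR adjusted p = 8.53e-05). It was 2.89 above LFD in SW mice as well (adjusted p = 0.000391). Macrophage markers rose at 11 of 11 in HFD against LFD (median log2 fold change 3.08) and at 10 of 11 in SW against LFD (2.57). Their part in the Egr2 values was not tested. Nfia and Nfib, which cooperate with the cascade at enhancers, fell from 92.0 to 30.9 CPM and from 176 to 80.9 CPM (log2 fold changes -1.58 and -1.13). Srebf1, the activator of fatty acid synthesis, fell by 0.81 on the log2 scale. Both NFI genes rose from HFD to SW mice (Nfia by 1.28, adjusted p = 0.00206; Nfib by 0.67, adjusted p = 0.00598). The coactivator genes Crebbp (1.47) and the factor Klf9 (1.25) rose in HFD mice, and from HFD to SW mice Crebbp (-1.40), Klf9 (-1.35) and Ep300 (-0.77) fell. In SW against HFD mice 2 of the 23 rose and 4 fell, and in SW against LFD mice 1 rose and 2 fell, Prdm16 (-0.84) and Nfib (-0.46).

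Of 19 factors that restrain adipogenesis, 10 fell and 3 rose in HFD against LFD mice (median -0.63). Gata2, which represses Pparg, fell from 26.2 ± 2.16 to 7.46 ± 2.41 CPM (log2 fold change -1.82 ± 0.23 SE, edgeR adjusted p = 0.000170). Nr2f2 (COUP-TFII) fell by 1.81 and Dlk1, the preadipocyte factor, by 2.39 on the log2 scale. Dlk1 was low in both groups, at 4.33 ± 0.39 CPM in LFD and 0.87 ± 0.65 CPM in HFD libraries (SD). Endothelial markers fell at 3 of 5 in this comparison, and their part was not tested. Klf3 (1.66) and the lipolysis regulator Irf4 (0.96) were among the restraining factors that rose. Between HFD and SW mice 5 rose, led by Klf2 (1.61), Tcf7l2 (1.13) and Hes1 (1.11), and 4 fell, among them Klf3 (-1.64) and Klf7 (-0.74). In SW against LFD mice 5 fell and 1 rose, and Gata2 (-1.17), Nr2f2 (-0.97) and Dlk1 (-1.82) were among those that fell.

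Of 26 genes known as targets of PPARG and CEBPA, 14 fell and 3 rose in HFD against LFD adipocytes, with a median of -0.94, next to the members' median of -0.72. The adipokine genes Cfd and Retn fell by 4.42 and 3.13 on the log2 scale (305 ± 123 against 6519 ± 4090 CPM and 232 ± 93.2 against 2030 ± 323 CPM, mean ± SD), and Pck1 of glyceroneogenesis fell by 1.98. The fatty acid transporter gene Cd36 rose by 0.64 (adjusted p = 0.0169). Of the same targets 8 rose and 3 fell in SW against HFD mice, and Cfd (2.94), Retn (1.88) and the glucose transporter gene Slc2a4 (1.28) rose most. In SW against LFD mice 3 of the 26 fell and 0 rose, namely Retn (-1.25), Scd1 (-1.12) and Aqp7 (-0.63). Of the 7 adipocyte markers, 6 are also on this target list, so the counts of both share genes.

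A few genes followed single members closely over the 9 adipocyte libraries. The likeness was the root mean square difference of log2 CPM after centring each gene on its own mean, over 12804 genes. For Pparg the closest were Cldn12 (0.0989), Fbxl4 (0.0999) and Prpf40b (0.105), against a median of 0.498 over all genes. The closest genes were picked as the smallest values, so they had to lie below the median, and no link was tested. Cldn12, a claudin gene, had mean levels of 16.7 ± 1.28 CPM for LFD, 8.66 ± 1.03 for HFD and 11.6 ± 1.58 for SW libraries (SD, n = 3). For Cebpb they were Krt10 (0.117), Lamtor4 (0.141) and Fam195b (0.142), and for Ebf2 they were Gulp1 (0.0627), Agtr1a (0.137) and Pygo1 (0.137). Gulp1 followed Ebf2 at 20.9 ± 3.63 CPM for LFD, 17.6 ± 3.24 for HFD and 18.3 ± 5.92 for SW libraries.

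In SVC the same members were measured in fewer libraries, and the HFD pair was discordant. Mitochondrial genes took 6.34% of the counts of SVC HFD 212 and 33.5% of those of SVC HFD 411, and the immediate early genes summed to 8896 and 1070 CPM. Macrophage markers summed to 10311 and 18531 CPM in this pair. Hemoglobin genes took 0.287% and 3.09% of its counts, against 5.15% in the LFD and 2.76 to 3.57% in the SW libraries. Values without 1 of the pair are therefore given beside the comparisons that use it. Pparg stood at 15.7 CPM in the LFD library, 46.2 and 29.0 CPM in the HFD libraries (212 and 411) and 18.7, 18.9 and 22.3 CPM in the SW libraries. Both HFD libraries were above all others. The adipocyte markers summed to 1143 and 765 CPM in these HFD libraries, 528 in LFD and 387 to 577 in SW SVC libraries. Of these 7 markers 1 rose and 1 fell in SW against HFD SVC, with a median log2 fold change of 1.15. Their part in the SVC values was not tested. Rxra stood at 180 CPM in LFD, 55.7 and 75.5 CPM in HFD and 119, 139 and 139 CPM in SW libraries, with the HFD libraries below the rest. The SW and HFD libraries did not overlap for 5 members, 3 of them higher and 2 lower in SW, as was so for 58.6% of all genes.

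In SW against HFD SVC, 1 of 9 members was higher, Rxra, and 0 lower, where 5.71% of all 16319 genes were called higher, 11.7% lower and 17.5% in either direction. Rxra rose 2.02-fold (log2 fold change 1.01 ± 0.23 SE, edgeR adjusted p = 0.0409), and this call was lost without HFD 212 (0.0789), SW 412 (0.160), SW 413 (0.0796) or SW 414 (0.0940). Leaving out HFD 212 left 0 members called and leaving out HFD 411 gave 5. Without SW 412 or SW 413, 0 of all genes were called, with 4217 and 5435 genes at an unadjusted p under 0.05. Pparg was at -0.91 ± 0.27 SE (edgeR adjusted p = 0.0606), and passed in DESeq2 (0.0371), with at least 10 counts required in every library (0.0359) and without HFD 411 (-1.21, 0.0148), while without HFD 212 it was at -0.47 (0.231).

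The early factors differed most between the HFD libraries. Cebpb stood at 129 and 34.6 CPM in HFD 212 and 411, against 22.5 CPM in LFD and 18.5, 31.2 and 39.2 CPM in SW libraries. Cebpd stood at 115 and 44.2 CPM in HFD 212 and 411, against 67.9 CPM in LFD and 68.7, 110 and 125 CPM in SW libraries. HFD 212, the higher of the pair for both, was also the library with the 8896 CPM of immediate early genes, and the part of these in the values was not tested. The log2 fold change of Cebpb in SW against HFD was -1.46 ± 0.57 SE (edgeR adjusted p = 0.105) with both libraries, -2.11 without 411 (0.0155) and -0.15 without 212 (0.820).

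The remaining members were Cebpa at 160 CPM in LFD, 130 and 235 in HFD and 238, 238 and 282 in SW SVC, and Klf15 at 8.56 CPM in LFD, 2.96 and 2.90 in HFD and 4.55, 4.93 and 5.88 in SW SVC. Klf15 was thus lowest in the HFD libraries here too, but it was not called in SW against HFD (0.80 ± 0.36 SE, adjusted p = 0.140). Cebpa was at 0.96 (0.0230) in SW against HFD without HFD 411 and at 0.17 (0.588) without HFD 212. Ebf1 was at -1.08 (0.0243) without HFD 411 and at -0.10 (0.812) without HFD 212. Ebf1 ranged from 10.8 to 26.6 CPM, Ebf2 from 7.42 to 30.7 CPM and Zfp423 from 4.35 to 17.1 CPM over the SVC libraries. With 1 LFD library, differences from lean SVC have no replicate check: on the log2 scale the HFD mean over the LFD value was 1.26 for Pparg, -1.46 for Rxra, -1.55 for Klf15 and -1.40 for Zfp423. That LFD library also held 11044 CPM of fibroblast and progenitor markers, against 3779 and 5162 CPM in the HFD and 6395 to 7329 CPM in the SW libraries. In SW against HFD SVC 5.71% of all genes were called higher and 11.7% lower. The other lists gave 1 fall of 10 relatives (Cebpg, -1.57) and 2 falls of 24 other adipogenic factors (Nr3c1, -2.27, and Creb1, -1.88). Of 19 restraining factors 2 fell (Sirt1, -2.45, and Ncor1, -1.55). Of 25 targets 2 rose, Slc2a4 (1.64) and Plin4 (1.15), and 3 fell, Cd36 (-2.54), Fabp4 (-2.08) and Lpl (-1.94). Without SW 412 or SW 413, 0 of these calls were left.

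The fractions were compared within a diet, in a fit of all 15 libraries. Both fractions hold more than 1 cell type, as the endothelial and macrophage markers above show, and their part was not tested. In SW mice 5 of 9 members were higher in adipocytes than in SVC and 2 lower, where 32.8% of all 17441 genes were called higher, 35.6% lower and 68.4% in either direction. On the scale set over both fractions Pparg stood at 101, 133 and 137 CPM in SW adipocytes and at 21.9, 23.2 and 26.7 CPM in SW SVC. It was 5.18-fold higher in adipocytes (log2 fold change 2.37 ± 0.19 SE, edgeR adjusted p = 4.60e-07). Ebf1 was 4.14-fold higher (2.05 ± 0.20 SE, adjusted p = 2.00e-06), Klf15 3.88-fold (1.96 ± 0.20 SE, 2.49e-06) and Zfp423 1.74-fold (0.80 ± 0.23 SE, 0.00785). The libraries of the 7 called members did not overlap, as held for 70.8% of all genes.

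Cebpb was 2.12-fold higher in SW adipocytes (1.09 ± 0.37 SE, adjusted p = 0.0195), a call lost without adipocyte SW 407 (0.0586) or SVC SW 414 (0.0543). Rxra, at 77.0, 77.8 and 90.5 CPM in adipocytes and 146, 164 and 166 CPM in SVC, was 1.94-fold lower in adipocytes (-0.95 ± 0.16 SE, 0.000184). Cebpd was 2.76-fold lower (-1.46 ± 0.31 SE, 0.000911). Cebpa (0.11 ± 0.25 SE, 0.709) and Ebf2 (0.34 ± 0.35 SE, 0.395) did not pass.

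In HFD mice 4 of 9 members were higher in adipocytes and 2 lower, where 12.9% of all genes were called higher and 16.2% lower. Higher were Zfp423 (3.07-fold, log2 fold change 1.62 ± 0.27 SE, edgeR adjusted p = 0.00116), Klf15 (2.80-fold, 1.49 ± 0.23 SE, 0.000774), Pparg (2.51-fold, 1.33 ± 0.21 SE, 0.000864) and Ebf1 (2.04-fold, 1.03 ± 0.22 SE, 0.00521). With only the compared groups in the fit, Ebf1 missed the threshold (0.0533). Without SVC HFD 212 and without SVC HFD 411 the log2 fold changes were 2.10 and 1.27 for Zfp423, 1.42 and 1.55 for Klf15, 1.61 and 1.10 for Pparg, and 1.46 and 0.71 for Ebf1, all still called. Cebpd was 5.05-fold lower (-2.33 ± 0.34 SE, 0.000457), with -1.60 (0.00178) without SVC HFD 212 and -2.82 (0.000120) without SVC HFD 411. Cebpb was 2.66-fold lower in adipocytes (-1.41 ± 0.40 SE, 0.0198), a call lost without SVC HFD 212 (-0.29, 0.541), adipocyte HFD 401 (0.0612) or HFD 403 (0.0587). Rxra was at 0.19 ± 0.18 SE (0.456). In LFD mice Pparg stood at 174, 196 and 221 CPM in adipocytes and 19.5 CPM in the single SVC library.

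The change from HFD to SW mice was also compared between the fractions, where 27.1% of all genes were called. It differed for 4 of 9 members, with Cebpb (2.50), Pparg (1.05) and Ebf1 (1.02) higher in adipocytes by this difference of log2 fold changes and Rxra (-1.14) higher in SVC. Without SVC HFD 212 the calls of Pparg (0.77, adjusted p = 0.0697) and Ebf1 (0.59, 0.137) were lost, and Cebpb was at 1.37 (0.0444). Without SVC HFD 411 Cebpb was at 3.21 (0.000123).

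**Figure D4:**
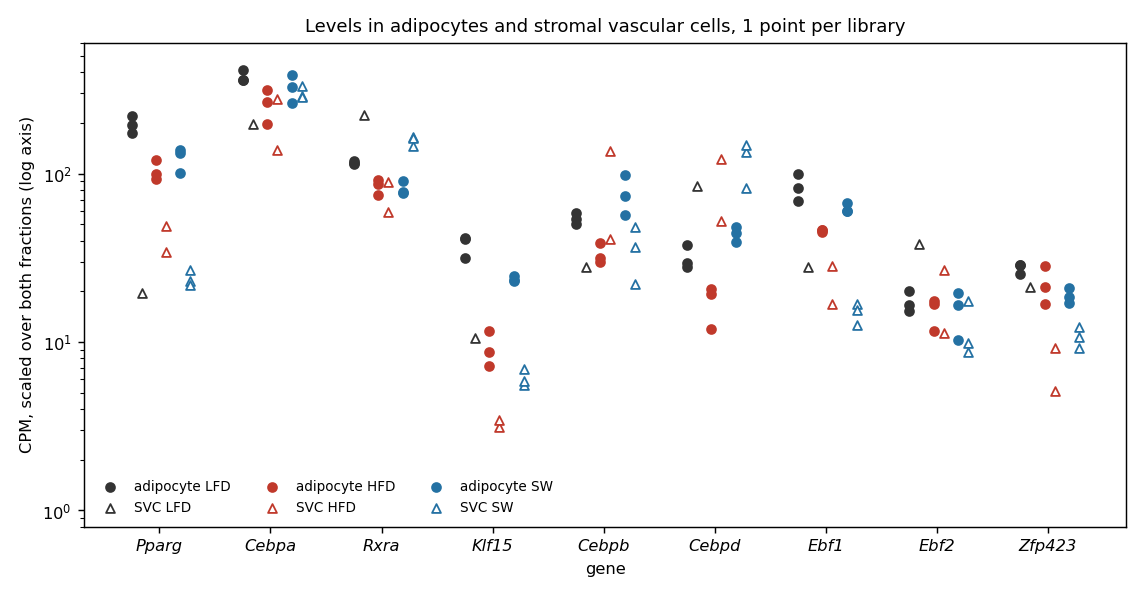
CPM of each member in every library on a log axis, scaled over both fractions, with filled circles for adipocytes and open triangles for SVC, in black for LFD, red for HFD and blue for SW. Pparg, Klf15 and Ebf1 lie higher in adipocytes in each diet, Cebpd lies higher in SVC, and the adipocyte and SVC points of Ebf2 overlap in HFD and SW mice.

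To compare genes with each other, the CPM of both fractions were divided by the length of the longest transcript in kilobases. The longest transcript need not be the one expressed, so the order below depends on this choice. For example, 3746 bases were used for Cebpd and 1504 for Cebpb. In LFD adipocytes Cebpa (144 ± 12.0 CPM per kb, SD, n = 3) and Pparg (92.6 ± 11) were the most abundant members, followed by Cebpb (36.2 ± 2.77), Rxra (23.7 ± 0.580), Klf15 (15.3 ± 2.30), Ebf1 (14.0 ± 2.63), Cebpd (8.45 ± 1.39), Zfp423 (5.62 ± 0.372) and Ebf2 (3.34 ± 0.487). Klf15 and Ebf1 were within their spread of each other. In HFD adipocytes the order began with Cebpa (98.5 ± 22.1), Pparg (49.3 ± 6.67) and Cebpb (22.3 ± 3.18), and Klf15 (3.71 ± 0.904) stood beside Zfp423 (4.50 ± 1.19), Cebpd (4.62 ± 1.26) and Ebf2 (2.95 ± 0.626). In SW SVC Cebpa was again first (115 ± 9.60), with Cebpd (32.3 ± 9.21) and Rxra (32.3 ± 2.21) next and Pparg at 11.3 ± 1.16 CPM per kb.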

How the data were processed

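The 26 records in the labels describe 18 libraries, some sequenced in more than 1 run. The authors aligned reads to the mouse transcriptome by Bowtie2 and RSEM was used for counting, and the submitters' processing notes also name limma and the mouse build mm9. The deposited values are estimated counts per gene, already whole numbers, with no normalization. Tool versions are not given in the sources used here. Deposited columns were tied to a group by fraction and diet in their heading, which gave 15 libraries. Another 3 columns matched no group's labels and were not used. Which runs, single or paired-end, each column holds is not given in the sources used here, so layouts could not be compared.

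Estimated counts were fitted in edgeR 4.0.16 (R 4.3.3). Low genes were removed by filterByExpr (minimum count 10), libraries were scaled by TMM, and the quasi-likelihood model (robust) held all groups of a fraction, or of both fractions for comparisons between them, with Benjamini-Hochberg adjusted p-values over all genes tested with a threshold of 0.05. CPM are counts scaled by library size and TMM factors. Scripts were tested on simulated data with known changes. Few genes were changed: in SVC 105 by 1 and 95 by 2 on the log2 scale, of 15701 genes. In the data 17.5% of genes were called in SW against HFD SVC, so the shares recovered hold for the simulated setting only. Of changes of 1 on the log2 scale, 57.1% were recovered in HFD against LFD adipocytes. In adipocytes against SVC in SW mice 26.4% were recovered, and in SW against HFD SVC 0 of 105. Of changes of 2 on the log2 scale, 87.3%, 66.0% and 22.1% were recovered in these comparisons. A missing call in SVC therefore does not show that a gene was unchanged. Alternatives were DESeq2 1.42.0, limma-voom (limma 3.58.1), RLE and upper-quartile factors, other filters, the compared groups alone, each library left out, and log2 (CPM + 0.5) minus log2 of the summed adipocyte marker CPM, tested with limma.

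The members and lists were chosen with earlier results of these data known. All members are named. Of each other factor or target list, up to 3 rises and 3 falls with the largest fold among genes past the threshold at a mean log2 CPM of at least 1 are named, and of Pparg, Cebpb and Ebf2 the 3 genes nearest in pattern. Some genes that meet this rule are not reported here. The macrophage, adipocyte, T cell, B cell, endothelial, fibroblast and progenitor, mesothelial, red cell and immediate early lists describe composition and handling. Adgre1 is listed under its older symbol and was matched by identifier. Transcript lengths came from GENCODE M21 and promoters from RefSeq (GRCm38.p6), which had no entry for Cebpd and Ebf2. The counts' build differs, so no other coordinates are given. Python 3.11.15, pandas 2.3.3 and matplotlib 3.10.9 were used.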

Additional observations from a re-analysis of the deposited data

Results flagged for a closer look

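For 4 members the change from HFD to SW mice differed between adipocytes and SVC by a test of the difference itself (edgeR, interaction of fraction and diet), where 27.1% of all genes were called. The difference, adipocytes minus SVC on the log2 scale, was 2.50 ± 0.55 SE for Cebpb (adjusted p = 0.00596). In the fits of single fractions Cebpb rose by 1.19 in adipocytes and was at -1.46 in SVC (edgeR adjusted p = 0.105). Its SVC value drew on HFD libraries at 129 CPM (212) and 34.6 CPM (411), and was -0.15 without SVC HFD 212. The difference was -1.14 ± 0.25 SE for Rxra (adjusted p = 0.00556). In the fit of SVC alone Rxra rose by 1.01 (edgeR adjusted p = 0.0409), and by 0.89 without SVC HFD 212. That SVC call was lost without SW 412 (0.160), SW 413 (0.0796) or SW 414 (0.0940).

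Pparg differed by 1.05 ± 0.27 SE (adjusted p = 0.0137) and Ebf1 by 1.02 ± 0.29 SE (adjusted p = 0.0210). Without SVC HFD 212 the Pparg difference was 0.77 (adjusted p = 0.0697) and that of Ebf1 0.59 (adjusted p = 0.137), so both calls were lost, and Zfp423 was then called at -1.30 (adjusted p = 0.0259). Without SVC HFD 411 Cebpd was called as well, at 1.45 (adjusted p = 0.0115). The Cebpb difference ran from 1.37 to 3.21 over the fits without 1 library and that of Rxra from -1.37 to -0.88, and both passed in each.

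No group had more than 3 libraries, so no library was tested as an outlier within its group. A chi-squared statistic per degree of freedom was taken on the counts of each pair of libraries within a group. It was 96.8 and 87.0 for adipocyte SW 407 with SW 408 and SW 409, and 13.7 for SW 408 with SW 409. The SVC HFD pair stood at 408.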

How the results depend on the processing

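Of the single-gene values under the alternatives, 914 kept direction and side of the threshold, 40 kept direction and lost the call, 25 gained one and 38 reversed. The alternative that reversed most was scaling to the adipocyte markers. By its construction it shifts every gene by the change in those markers, and 6 of the 7 markers are targets of these factors. In HFD against LFD it gave Pparg 0.32, Cebpa 0.66, Rxra 0.76, Cebpb 0.53, Cebpd 0.35, Ebf1 0.39, Ebf2 1.04 and Zfp423 0.88. In SW against HFD it gave Pparg -0.53, Cebpa -0.42, Ebf1 -0.33 and Ebf2 -0.78, and Rxra (-0.81, adjusted p = 0.00728) and Zfp423 (-0.96, adjusted p = 0.00403) became called lower, beside Klf15 higher. In SW against LFD it gave Cebpa 0.24, Ebf1 0.061 and Ebf2 0.27. In HFD and SW together against LFD it gave Pparg 0.055, Cebpa 0.45, Rxra 0.36, Cebpb 0.72, Cebpd 0.64, Ebf1 0.22, Ebf2 0.65 and Zfp423 0.40. Other reversals were of values near 0 or came with 1 library left out, and their cause was not tested. In SW against HFD adipocytes Rxra was 0.0051 with upper-quartile factors and Ebf2 -0.0057 without a filter. With each library left out in turn, Rxra there ran from -0.12 to 0.0023 and Ebf2 from -0.19 to 0.25, and Ebf2 in SW against LFD ran from -0.38 to 0.055. In SW against HFD SVC, Cebpd ran from -0.18 (without HFD 411) to 1.26 and Ebf2 from -1.31 to 0.16 (without HFD 212). Between fractions, Cebpa ran from -0.031 to 0.34 in SW mice and from -0.11 to 0.91 in HFD mice, where Rxra ran from -0.078 to 0.52 and Ebf2 from -0.80 to 0.44. In the difference between fractions Cebpa ran from -0.70 to 0.22 and Ebf2 from -0.11 to 1.23. Each of the latter 5 reversals in HFD mice and in the difference came without SVC HFD 212.

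The number of members called moved beyond 1.5 times in 2 comparisons. In SW against LFD adipocytes it was 3, but 5 with DESeq2, 5 with upper-quartile factors and 1 to 4 with a library left out. In SW against HFD SVC it was 1, but 3 with DESeq2, 2 with at least 10 counts in every library and 0 to 5 with a library left out. With a library left out it was 6 to 8 in HFD against LFD, 3 to 4 in SW against HFD, 4 to 6 in HFD and SW together against LFD, 6 to 7 and 5 to 7 between fractions in SW and in HFD mice, and 3 to 5 in the difference between fractions. Over all genes, SW against HFD adipocytes gave 4546 calls, 2299 without HFD 401, 1522 without HFD 403 and 8298 with marker scaling. Marker scaling also gave 11411 calls against 7448 in HFD against LFD and 10427 against 5802 in HFD and SW together against LFD. SW against HFD SVC gave 2849 calls (32.7% higher), 5222 with DESeq2 (47.4% higher), 1719 with limma-voom, 503 without HFD 212, 6213 without HFD 411, 593 without SW 414 and 0 without SW 412 or SW 413. Adipocytes against SVC in HFD mice gave 5078 calls, 2030 with the compared groups alone, 3255 without adipocyte HFD 402 and 2528 without SVC HFD 411. The difference between fractions gave 4727 calls and 2936 without SVC HFD 212. Where a library left out leaves 1 in its group, that library is assumed to vary like the others.

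No paired analysis was possible because the columns carry numbers that are in no label and are not shared between groups. The smallest libraries are in the LFD groups, and the count of Klf15 in SVC, 42 to 110 per library, limits what can be seen there.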
